A study of Homo sapiens with 6 samples.

Results

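The collagen and laminin chains are the structural subunits of the extracellular matrix, and their genes were followed here in an ovarian carcinoma line after knockdown of a histone acetyltransferase. Members were all protein-coding genes whose symbol is COL, a number, A and a number, or LAMA, LAMB or LAMC and a number. The rule gave 56 genes, 44 collagen chains and 12 laminin chains, among 27001 named genes in the deposited table. Of the 56, 39 had a mean of at least 10 normalized counts over the libraries and were tested (28 collagen and 11 laminin chains), among 15184 genes tested in all. The other 17 were below that level.

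The libraries are RNA-seq of UWB1.289, an established human ovarian carcinoma cell line that lacks functional BRCA1. Cells of both groups were transduced with lentivirus in the presence of polybrene at 10 µg/mL and, 96 h later, selected in puromycin at 1 to 3 µg/mL. The shCTRL group carried a control hairpin (3 libraries) and the shHBO1 group a hairpin against HBO1, the acetyltransferase encoded by KAT7 (3 libraries). The labels do not name the number of hairpins, so other effects of a hairpin and loss of HBO1 cannot be told apart. Both groups have libraries numbered 1 to 3, whose origin from separate cultures is not stated in the labels. The p-values therefore cover the spread between libraries alone, and that spread may be technical. In these bulk samples a smaller number of cells making a chain and less RNA per cell cannot be told apart.

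Collagens are built from chains that wind into a triple helix. Fibrillar collagens form the fibres of connective tissue, type IV collagens form the network of basement membranes, and the remaining types link, decorate or anchor these structures. Laminins are cross-shaped trimers of an alpha, a beta and a gamma chain that carry epithelial cells on the basement membrane. LAMA3 and LAMB3 belong to the laminin of hemidesmosomes, where COL7A1 forms the anchoring fibrils below it and COL17A1 spans the cell membrane. Carcinoma cells of epithelial origin make basement membrane chains themselves, whereas the fibrillar chains of a tumour come largely from fibroblasts.

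Normalized counts are reads divided by the authors' scaling factor for each library. The recovered reads numbered 35940400 to 39908703 per library. KAT7 had 3616, 3952 and 3554 normalized counts in shCTRL and 1008, 872 and 784 in shHBO1, and its log2 fold change was −2.07 (SE 0.11, limma adjusted p = 0.00123). The 11 epithelial and serous markers summed to 348427 to 407445 normalized counts in shCTRL and 328030 to 386456 in shHBO1. Among them only WFDC2 had no overlap between the groups (1378 to 1555 in shCTRL and 1046 to 1153 in shHBO1). The 10 fibroblast markers summed to 1426 to 1622 in shCTRL and 1111 to 1241 in shHBO1, most of it from FBLN1 and THY1. Of these markers DCN and PDGFRA had 0 in all 6 libraries, LUM, FAP, PDGFRB and POSTN stayed at or below 6.11, and ACTA2 had 11.2 to 22.4. MFAP5 went against the sum, with 44.7, 30.0 and 76.6 in shCTRL and 90.6, 87.6 and 92.6 in shHBO1. The 7 mesothelial markers summed to 3947 to 4298 in shCTRL and 3315 to 3650 in shHBO1. The 8 endothelial markers summed to 967 to 1404 and 842 to 1006. Of the mesothelial markers only PDPN had no overlap between the groups (615 to 876 in shCTRL and 436 to 605 in shHBO1). MSLN, the most abundant, had means of 2262 and 1727, and BNC1 went against the sum with 355 and 454. CDH5 made up most of the endothelial sum (835 to 1232 and 674 to 856), and TEK and EMCN stayed at or below 4.19. KDR and PECAM1 went against that sum, with means of 23.2 and 41.8 in shCTRL and 36.8 and 48.7 in shHBO1. The 8 leukocyte markers summed to 692 to 777 in shCTRL and 684 to 786 in shHBO1, most of it from CD68. Within that list only CD14 had no overlap (38.4 to 39.6 in shCTRL and 14.5 to 24.4 in shHBO1). Lower values with no overlap were found in 4.44% of all genes. The part of these cell types' RNA in the results was not tested. Along the first principal component, with 44.4% of the variance, the 2 libraries numbered 3 lay apart from the other 4.

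The stretches printed next, upstream of member genes, are shown because their genes return in the results. COL4A1 and COL4A2 lie head to head and share the stretch between their starts, LAMB3 and COL7A1 differed strongly between replicate numbers, and LAMA3 is the partner chain of LAMB3. The sequences and starts are RefSeq's for GRCh38.p14, whereas the submitters' processing notes name hg19. Of the 56 members, 41 had an entry in the promoter table, and 28 of these were tested. Capitals mark matches to 4 motifs, searched on both strands and with no overlap between different motifs in these stretches: the GC box GGGCGG, the CCAAT box CCAAT, the TATA box TATAAA and the AP-1 site TGANTCA.
COL4A1-COL4A2 (chr13:110307158-110307283, + strand, the 126 bases between the starts, read towards COL4A2): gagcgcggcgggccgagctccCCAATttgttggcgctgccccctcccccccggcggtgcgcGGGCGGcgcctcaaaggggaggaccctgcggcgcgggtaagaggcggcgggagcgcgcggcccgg
LAMB3 (chr1:209652426-209652675, − strand, the 250 bases before the outermost of its 3 listed starts): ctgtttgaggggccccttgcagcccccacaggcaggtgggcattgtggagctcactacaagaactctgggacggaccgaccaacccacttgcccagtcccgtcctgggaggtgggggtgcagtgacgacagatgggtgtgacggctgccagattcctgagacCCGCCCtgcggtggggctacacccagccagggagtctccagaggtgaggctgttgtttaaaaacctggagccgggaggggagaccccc
LAMA3 (chr18:23872770-23873019, + strand, 250 bases before the start listed for LAMA3): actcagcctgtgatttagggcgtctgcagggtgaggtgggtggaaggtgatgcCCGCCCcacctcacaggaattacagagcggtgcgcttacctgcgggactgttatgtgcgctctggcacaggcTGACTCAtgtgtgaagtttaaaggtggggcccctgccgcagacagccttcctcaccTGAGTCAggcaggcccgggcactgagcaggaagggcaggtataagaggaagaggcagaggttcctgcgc
COL7A1 (chr3:48595330-48595579, − strand, 250 bases before the start): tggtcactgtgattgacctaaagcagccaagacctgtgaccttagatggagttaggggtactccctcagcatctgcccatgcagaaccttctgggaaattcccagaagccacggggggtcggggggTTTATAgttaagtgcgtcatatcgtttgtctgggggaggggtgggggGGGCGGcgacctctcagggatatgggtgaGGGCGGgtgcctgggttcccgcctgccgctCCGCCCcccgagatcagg
The COL4A1-COL4A2 stretch held 1 GC box and 1 CCAAT box. The LAMB3 stretch held 1 GC box, the LAMA3 stretch 1 GC box and 2 AP-1 sites, and the COL7A1 stretch 3 GC boxes and 1 TATA box. That TATA match was on the strand opposite to the gene and began 124 bases before the start. Over the 250 bases before all 35116 listed starts of the genome, a GC box was in 42.6%, a CCAAT box in 32.0%, a TATA box in 10.7% and an AP-1 site in 6.57%. Over the 55 starts listed for members the shares were 58.2%, 25.5%, 14.5% and 5.45%. A match is a description of letters and not a site of binding.

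Laminin chains led the levels of the 38 tested chains shown. Levels are compared between genes per length, as normalized counts per kb of transcript averaged over the 6 libraries. LAMB3, a beta chain, averaged 2380 per kb with a range of 1291 to 3724, and LAMA3, an alpha chain, averaged 2361 with a range of 1966 to 2950. LAMB1 (2286) and LAMC1 (1983) followed, and the ranges of these chains overlapped. LAMB1 and LAMC1 are the beta and gamma chains that pair with LAMA5 in basement membranes, and LAMA5 stood at 611 per kb. The muscle and embryonic alpha chains were low, LAMA2 at 9.59 and LAMA1 at 4.79 per kb.

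Among collagens COL8A1 and chains of types IV and VI came first. COL8A1, a short-chain collagen of vessel and endothelial matrices, stood at 1516 per kb and COL4A2 at 1486, and their ranges overlapped. COL6A2 (1211) and COL6A1 (1071), 2 chains of the beaded type VI filament, came next, and then COL4A1 at 776. COL6A3, the chain that completes the classical type VI trimer, was listed at only 2.67 per kb. COL7A1 had 378 per kb and COL18A1, whose C-terminal fragment is endostatin, 430.

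Fibrillar collagens were lower, with COL27A1 at their head. COL27A1 had 219 per kb, whereas COL1A1 had 112 and COL1A2 54.0. COL3A1 and COL5A1, which fibroblasts make together with type I collagen, were nearly absent, with 6 and 4 reads in total over the 6 libraries. COL1A1 had 502 to 895 normalized counts and COL5A2, another fibrillar chain, 68.2 to 130. In the same libraries the fibroblast markers DCN and PDGFRA were at 0, THY1 had 417 to 498 and FBLN1 554 to 1065.

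**Figure D1:**
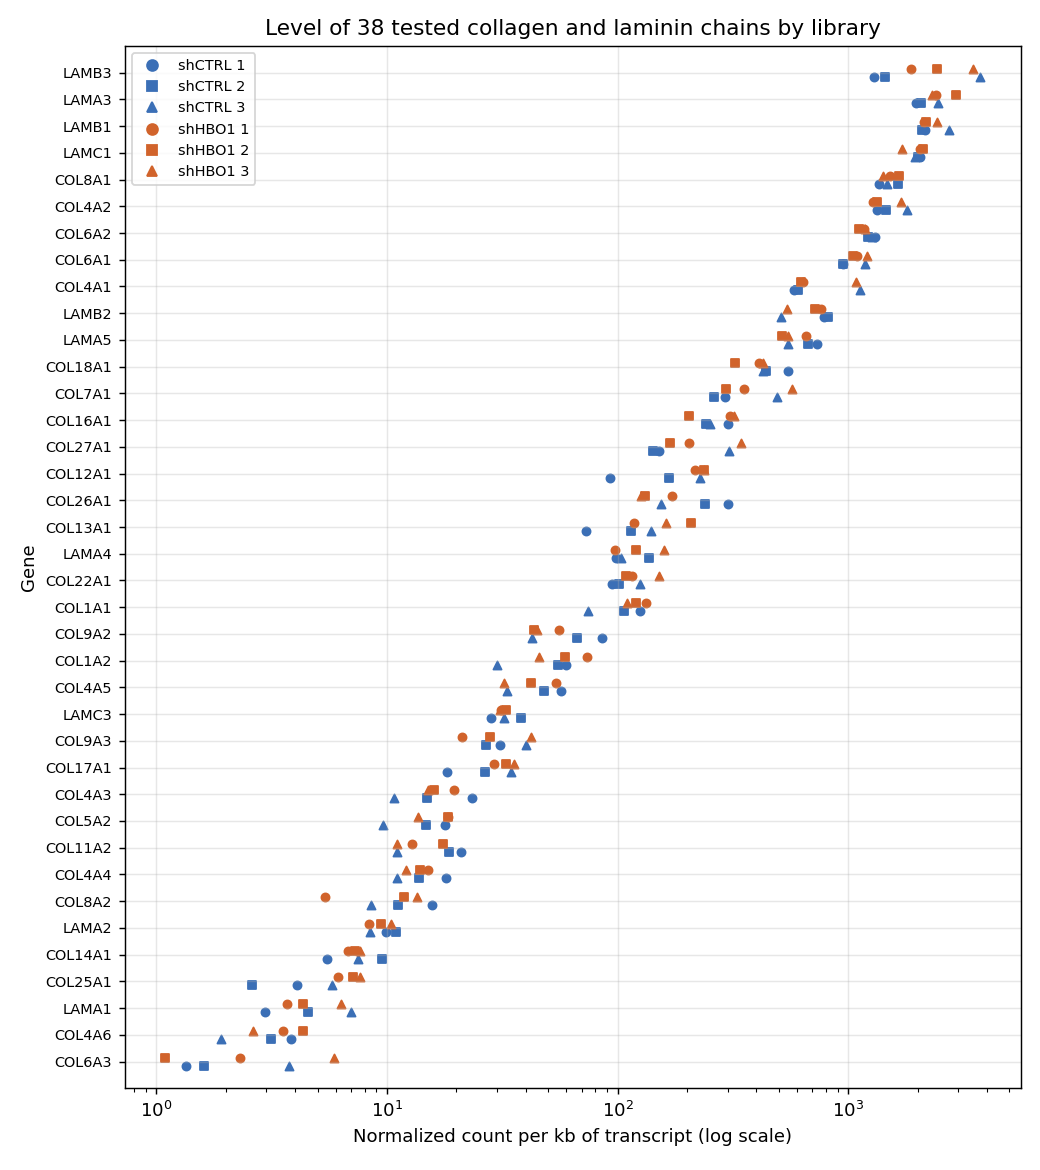
Normalized count per kb of transcript (log axis) for 38 tested chains, with 1 point per library, blue for shCTRL and orange for shHBO1, and the marker shape giving the replicate number. LAMB3 has the highest mean, 2380 per kb, and COL6A3 is lowest on average at 2.67.

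The 17 members below the level for testing reached at most 12.5 normalized counts in any library. COL9A1, COL10A1 and COL19A1 had 0 reads in all 6 libraries, which allows up to 3 reads per library for counting error alone. The remaining 14 were COL2A1, COL3A1, COL5A1, COL5A3, COL6A5, COL6A6, COL11A1, COL15A1, COL20A1, COL21A1, COL23A1, COL24A1, COL28A1 and LAMB4. COL15A1 was the highest of them, with a mean of 5.81.

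The main comparison asked which chains differed between shHBO1 and shCTRL. It used limma on log2(normalized count + 1) over all 15184 tested genes, with p-values adjusted by Benjamini-Hochberg and called at 0.05. Fold changes below are shHBO1 minus shCTRL on that scale, which understates changes of low genes. Of the 39 chains 0 passed, and the lowest adjusted p of any chain was 1.00. Over all genes 0.00659% passed, KAT7 alone. At an unadjusted p under 0.05, 1 of the 39 chains remained, against 3.54% of all genes.

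With the replicate number as a block, again 0 of the 39 chains passed, against 0.125% of all genes, and the lowest adjusted p was 0.124 (COL26A1). edgeR on the recovered reads called 0 chains without the block and 0 with it. DESeq2 called 0 without the block, with no adjusted p for 6 chains, and 1 with it, COL26A1, against 0.968% of all genes. At an unadjusted p under 0.05 the blocked fit had 12 chains (30.8%), against 11.3% of all genes. Of these, 8 were higher, against 5.39% of all genes, and 4 lower, against 5.89%. The median log2 fold change of the 39 chains was 0.041 beside 0.00011 over all genes, with 22 estimates above 0 and 17 below. By pair the median was 0.038, 0.058 and 0.050 for numbers 1, 2 and 3. All 3 pairs changed in 1 direction in 16 chains (41.0%), against 32.4% of all genes. The groups did not overlap in 2 chains (5.13%), against 8.93% of all genes. COL25A1 was higher in all shHBO1 libraries, against 4.49% of all genes, and COL6A2 lower, against 4.44%. Without the number 3 pair, 12 chains passed with the block (1 residual degree of freedom), against 15.2% of all genes, and 0 without it.

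**Figure D2:**
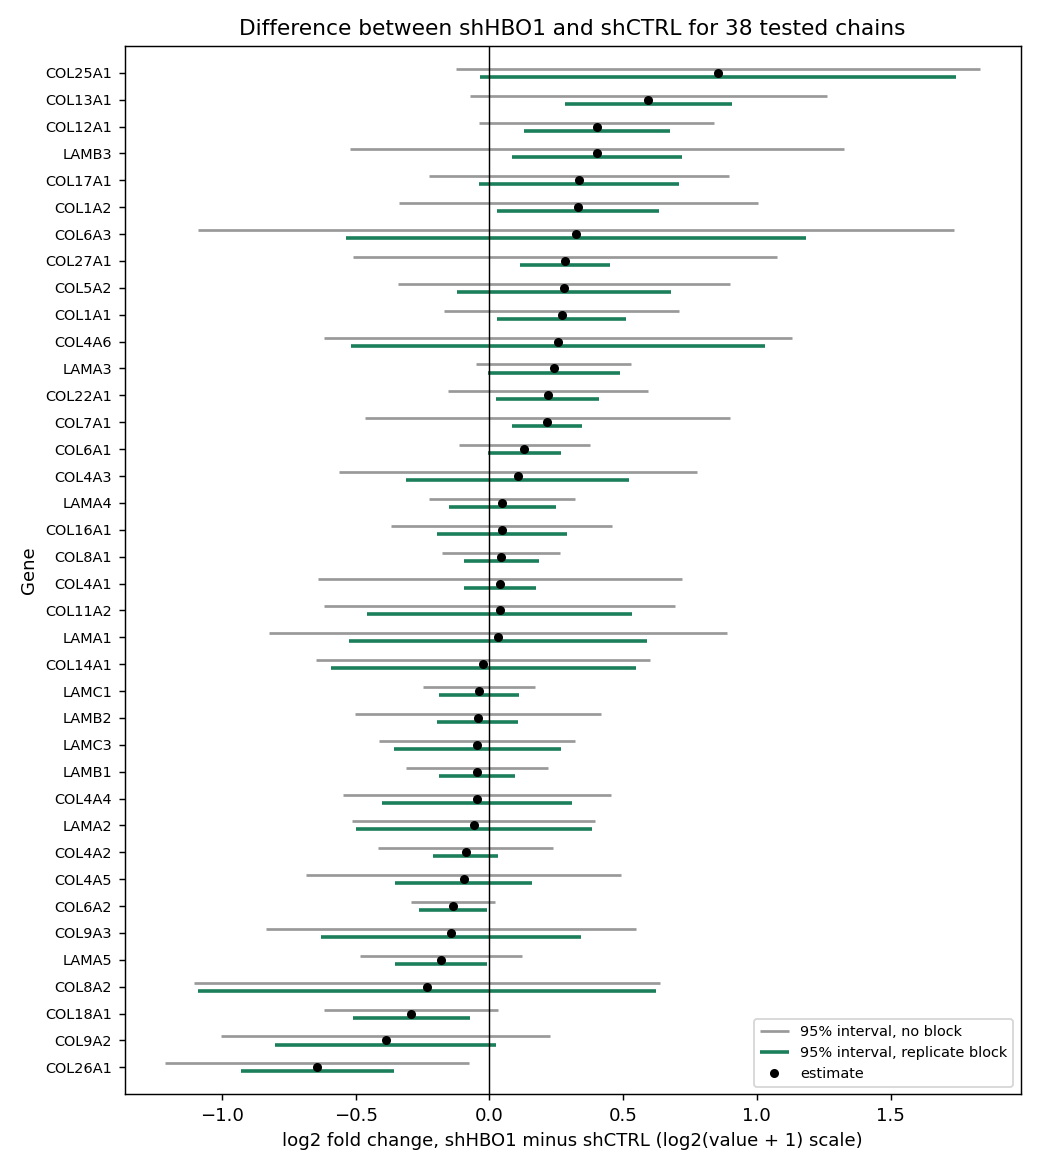
Log2 fold change of shHBO1 minus shCTRL (x axis, log2(value + 1) scale) for 38 tested chains, with 95% confidence intervals from limma without a block (grey) and with the replicate number as a block (green). COL26A1 is lowest at −0.64 and COL25A1 highest at 0.85, and the blocked interval is the narrower one for each of the 38.

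COL26A1, a small collagen-like protein first found in gonads, had the lowest estimate of any chain. It had 902, 717 and 465 normalized counts in shCTRL, and 523, 396 and 380 in shHBO1. Each shHBO1 library was below the shCTRL library of its number, and the groups overlapped only through shCTRL 3. The log2 fold change was −0.64 (SE 0.25, 95% interval −1.21 to −0.07, limma unadjusted p = 0.0314 and adjusted p = 1.00). With the block the limma adjusted p = 0.124, and with DESeq2 and the block the adjusted p = 0.00638. Its 2 transcripts did not share the difference. NM_133457 had 491, 342 and 250 in shCTRL and 78.5, 123 and 123 in shHBO1, with no overlap, whereas NM_001278563 had 411, 376 and 215 against 445, 273 and 258. With the more abundant transcript alone, the log2 fold change of COL26A1 was −0.03. The division of reads between transcripts follows no rule stated in the labels, and the difference between the transcripts was not tested.

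COL12A1, which coats collagen fibrils as a fibril-associated (FACIT) collagen, had 1062, 1356 and 1886 in shCTRL and 1722, 1908 and 1907 in shHBO1. The shHBO1 values were high and close together, and shCTRL 3 reached them. The log2 fold change was 0.40 (SE 0.19, limma adjusted p = 1.00, blocked adjusted p = 0.275). The long transcript NM_004370 had 1034, 739 and 1083 in shCTRL and 895, 1043 and 1019 in shHBO1, so the groups overlapped there. The shorter NM_080645 had 28.4, 617 and 802 in shCTRL and 827, 866 and 888 in shHBO1, and held 2.68% of the gene's counts in shCTRL 1 against up to 48.0% elsewhere.

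The 3 membrane-spanning collagens had the highest class median, 0.59. COL13A1, a collagen of cell-matrix junctions, had 153, 257 and 293 in shCTRL and 253, 443 and 355 in shHBO1. Its log2 fold change was 0.59 (SE 0.29, blocked limma adjusted p = 0.186). The shHBO1 value exceeded the shCTRL value in each numbered pair, although the groups overlapped. COL25A1, a membrane collagen best known from nerve cells, had 13.2, 7.49 and 15.7 in shCTRL and 16.8, 19.3 and 31.8 in shHBO1. The groups did not overlap, but the interval of its log2 fold change of 0.85 ran from −0.13 to 1.83. In shHBO1 3, 27.0 of the 31.8 counts were of the non-coding transcript NR_045756 and 2.89 of the most abundant transcript, NM_198721. With NM_198721 alone the estimate was −0.02.

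COL18A1 had 3000, 2413 and 2324 in shCTRL and 2237, 1753 and 2338 in shHBO1. Its log2 fold change was −0.29 (SE 0.14, blocked limma adjusted p = 0.313). The groups overlapped through shHBO1 3. The transcript NM_130445 held 96.1 to 97.8% of its counts in every library. COL6A2 had 4480, 4156 and 4306 in shCTRL and 3962, 3776 and 4037 in shHBO1. These groups did not overlap, yet the log2 fold change of −0.14 (SE 0.068, limma adjusted p = 1.00) was small. Its partner COL6A1 had 0.13 (95% interval −0.11 to 0.38), with 4015, 4016 and 4997 in shCTRL and 4654, 4456 and 5106 in shHBO1. The ratio of COL6A1 to COL6A2 per kb was 0.721, 0.776 and 0.932 in shCTRL and 0.941, 0.945 and 1.01 in shHBO1. Each shHBO1 ratio lay above all shCTRL ratios, by little for number 1, and this ratio was chosen after its values were seen and was not tested. COL6A3 had 11.2 to 56.0 normalized counts, too few for a narrow estimate (95% interval −1.09 to 1.74).

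LAMA3 and LAMB3 did not pass. LAMA3 had 10962, 11592 and 13761 in shCTRL against 13499, 16740 and 12785 in shHBO1, and its log2 fold change was 0.24 (95% interval −0.05 to 0.53). LAMB3 had 5256, 5891 and 15162 against 7672, 9927 and 14191, and its log2 fold change of 0.40 had an interval of −0.52 to 1.32. Leaving out 1 library moved it from 0.12 (without shCTRL 1) to 0.88 (without shCTRL 3). In both chains the groups overlapped, and in LAMB3 the number 3 libraries were the highest of both groups. The LAMA3 transcript NM_000227, whose product is the short form of the alpha chain, held 79.6 to 97.8% of the gene's counts. NM_001127718 held 1.47% in shHBO1 2, its lowest share, and up to 19.9% in shHBO1 3. The long form NM_198129 held 0.385 to 0.838%.

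The chains of the laminins that contain LAMA5 lay closer to 0. LAMC1 had a log2 fold change of −0.04 (95% interval −0.25 to 0.17), LAMB1 −0.05 (−0.31 to 0.22), LAMB2 −0.04 (−0.50 to 0.42) and LAMA5 −0.18 (−0.49 to 0.12). LAMA5 had 8398, 7631 and 6241 in shCTRL and 7472, 5885 and 6241 in shHBO1, with overlap. LAMC1 was among the steadiest chains, at 15411 to 16148 in shCTRL and 13528 to 16685 in shHBO1. Over the 11 tested laminin chains 4 estimates were above 0 and 7 below, with a median of −0.039.

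**Figure D3:**
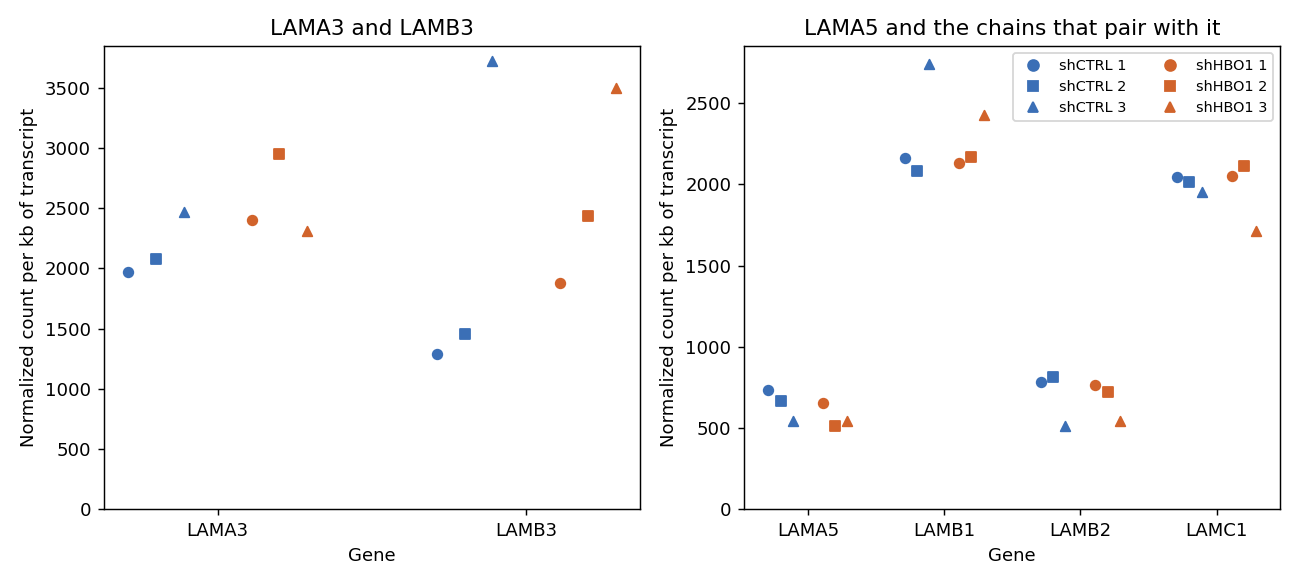
Normalized count per kb of transcript (y axis, from 0) for LAMA3 and LAMB3 (left) and for LAMA5 and the chains that pair with it (right), 1 point per library, blue for shCTRL and orange for shHBO1, marker shape for replicate number. The LAMA3 points lie between 1966 and 2950 per kb, and the LAMB3 points numbered 3 (triangles) lie above its other points in both groups.

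Type IV and fibrillar chains had the same outcome. COL4A1 had a log2 fold change of 0.04 (95% interval −0.64 to 0.72) and COL4A2 −0.09 (−0.42 to 0.24). With the block the intervals were −0.09 to 0.18 and −0.21 to 0.03. COL4A5 had −0.10 and its partner COL4A6, at 12.6 to 28.5 normalized counts, 0.26. All 5 tested fibrillar chains had estimates above 0, from 0.04 to 0.33, with a median of 0.28, and 0 of them passed. The sign was not stable in every chain. COL11A2, the lowest, was −0.017 with edgeR, −0.015 with DESeq2 and −0.15 without the number 3 pair. COL27A1 ran from −0.013 to 0.63 with 1 library left out. COL1A1 had 843, 717 and 502 in shCTRL and 895, 806 and 738 in shHBO1, and COL1A2 had 325, 299 and 163 against 397, 321 and 248. In both genes each shHBO1 library was above the shCTRL library of its number, while the groups overlapped. Their log2 fold changes were 0.27 (95% interval −0.17 to 0.71) and 0.33 (−0.34 to 1.00). Over all chains, 29 of the 95% intervals stayed within −1 to 1 and the other 10 reached past it.

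The remaining named chains were COL7A1 (0.22, 95% interval −0.46 to 0.90), COL27A1 (0.28, −0.51 to 1.07), COL8A1 (0.04, −0.18 to 0.26), COL16A1 (0.05, −0.37 to 0.46) and COL8A2 (−0.23, −1.10 to 0.64). COL8A1 had 4141, 4973 and 4458 in shCTRL and 4614, 5060 and 4307 in shHBO1. COL16A1, a FACIT collagen, had 1722, 1387 and 1448 against 1767, 1171 and 1838. The other 13 tested chains had means of 46.3 to 735 normalized counts and log2 fold changes from −0.39 to 0.34. They were COL4A3, COL4A4, COL5A2, COL9A2, COL9A3, COL11A2, COL14A1, COL17A1, COL22A1, LAMA1, LAMA2, LAMA4 and LAMC3.

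A second comparison asked how the chains differed between replicate numbers, with the hairpin as the other term of the fit. Its adjusted p-values, here and below, come from a joint test of any difference among the 3 numbers, in limma an F test. Differences of number 3 minus number 1 and their SE are printed beside them and were not tested by themselves. Of the 39 chains 9 passed (23.1%), against 9.68% of all genes. In number 3, LAMB3, COL27A1, COL4A1, COL7A1, COL13A1 and COL4A2 were higher than in number 1, and LAMB2, COL4A5 and COL1A2 were lower. So 6 were higher, against 4.85% of all genes in that direction, and 3 were lower, against 4.83%. The labels name no day, batch or passage for the numbers, so what the numbers stand for cannot be told. DESeq2 called 15 chains, against 13.0% of all genes, and edgeR 10, against 9.62%, and both lists held the same 9. Leaving out 1 library leaves 1 residual degree of freedom in this fit and gave 5 chains without shCTRL 2 or without shHBO1 2, 19 without shCTRL 3 and 25 without shHBO1 3. COL27A1, COL4A1, COL7A1, LAMB2 and LAMB3 passed in each of these. With the most abundant transcript of each gene in place of the sum, 0 chains passed, although the differences of COL7A1, COL27A1, LAMB2, COL4A2 and COL1A2, which have 1 transcript each, were the same. Of the 9, the lowest adjusted p there was 0.0600 for COL7A1, followed by 0.0619 for COL4A1 and 0.0724 for COL27A1. For the fits with a library left out or with the most abundant transcript, the share of all genes was not taken. Their counts of chains therefore cannot be set against it.

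**Figure D4:**
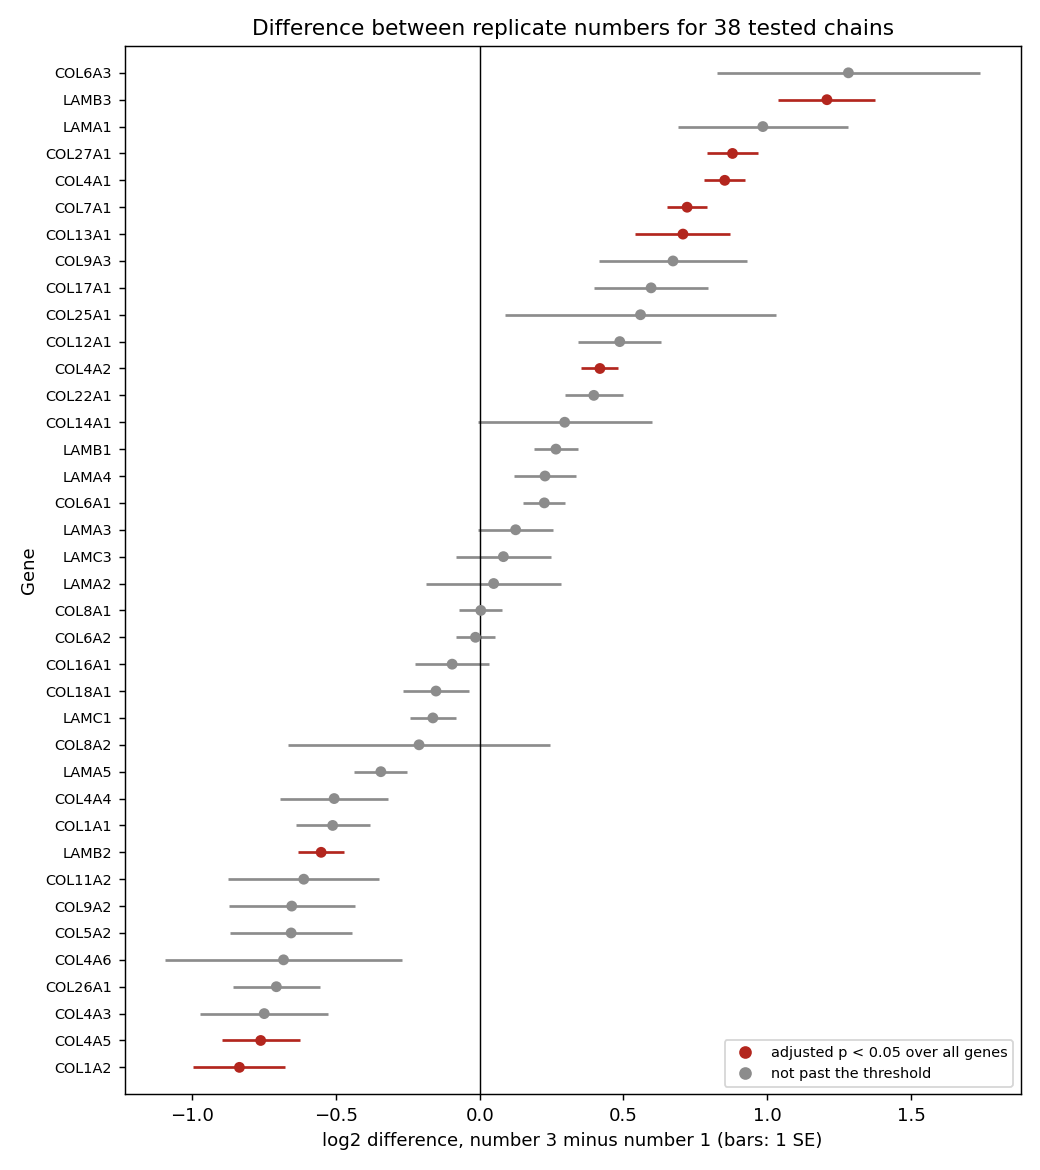
Log2 difference between the libraries numbered 3 and 1 (x axis, bars of 1 SE) for 38 tested chains. Red marks chains that passed the limma F test of any difference among the 3 numbers, adjusted over all genes. LAMB3 is the highest of the 9 red points at 1.21 and COL1A2 the lowest at −0.84.

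LAMB3 had the highest difference among the chains that passed. It stood at 15162 in shCTRL 3 and 14191 in shHBO1 3, and at 5256 to 9927 in the other 4 libraries. Number 3 exceeded number 1 by 1.21 on the log2 scale (SE 0.17, limma adjusted p = 0.0112), a factor of 2.31. Its partner LAMA3 did not pass, with a difference of 0.12 (adjusted p = 0.531). The ratio of LAMB3 to LAMA3 per kb was 0.657, 0.698 and 1.51 in shCTRL and 0.785, 0.826 and 1.51 in shHBO1. LAMB3 therefore stood below LAMA3 per kb in numbers 1 and 2 and above it in number 3, in both groups. The ratio was not tested.

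LAMB2, the beta chain that replaces LAMB1 in mature basement membranes, moved the other way. It stood at 2906 in shCTRL 3 and 3085 in shHBO1 3, and at 4093 to 4628 in the other 4 libraries, a difference of −0.55 (SE 0.081, limma adjusted p = 0.00975). LAMB1 had a difference of 0.26 and did not pass (adjusted p = 0.0723). The ratio of LAMB2 to LAMB1 per kb was 0.363, 0.391 and 0.187 in shCTRL and 0.358, 0.332 and 0.224 in shHBO1.

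COL4A1 and COL4A2, which share the stretch printed above and join in 1 trimer, were both higher in number 3 but by unequal amounts. COL4A1 had 7403 and 7137 in the libraries numbered 3 and 3853 to 4206 in the other 4, a log2 difference of 0.85 (SE 0.072, limma adjusted p = 0.00123). COL4A2 had 11700 and 11019 against 8343 to 9474, a difference of 0.42 (SE 0.064, limma adjusted p = 0.0157). The ratio of COL4A1 to COL4A2 per kb was 0.437, 0.416 and 0.624 in shCTRL and 0.495, 0.468 and 0.637 in shHBO1. The 2 chains held 23.8 to 25.8% of the summed collagen level per kb in numbers 1 and 2, and 31.5 and 29.7% in the number 3 libraries.

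Of the other head-to-head pairs 1 gene passed, COL4A5. COL4A3 and COL4A4, whose starts lie 418 bases apart on chromosome 2, had differences of −0.75 and −0.51 and did not pass (limma adjusted p = 0.120 and 0.212). COL4A5, on the X chromosome, had 213 and 208 in the number 3 libraries and 271 to 367 in the others, a difference of −0.76 (SE 0.14, limma adjusted p = 0.0291). COL4A6, its neighbour and partner, had −0.68 and did not pass (adjusted p = 0.393). COL4A3 and COL4A4 were chosen after their values were seen.

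**Figure D5:**
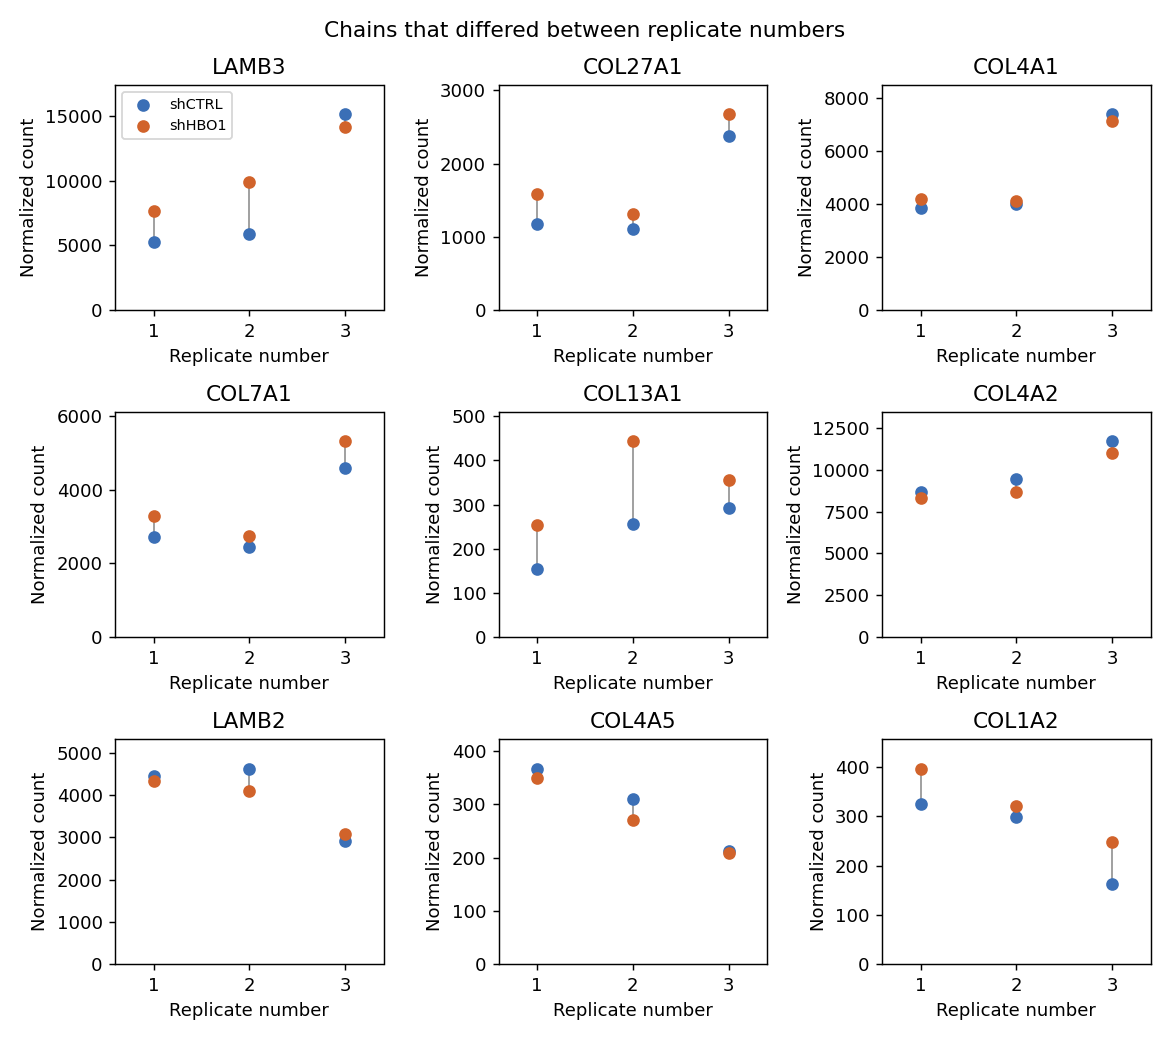
Normalized counts (y axis, from 0) by replicate number for the 9 chains that differed between numbers, with shCTRL in blue, shHBO1 in orange and a grey line joining the libraries of 1 number. In LAMB3, COL27A1, COL4A1, COL7A1 and COL4A2 both number 3 points lie above the other 4, and in LAMB2, COL4A5 and COL1A2 both lie below the points of number 1.

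COL7A1 and COL27A1 were the other large chains that were higher in number 3. COL7A1, the anchoring fibril collagen, had 4581 and 5303 in the number 3 libraries and 2442 to 3292 in the other 4, a log2 difference of 0.72 (SE 0.070, limma adjusted p = 0.00107). COL27A1, a fibrillar collagen of cartilage, had 2374 and 2674 against 1113 to 1590, a difference of 0.88 (SE 0.089, limma adjusted p = 0.00158). In both genes each shHBO1 library was above the shCTRL library of its number. With the block their log2 fold changes for shHBO1 had intervals of 0.09 to 0.35 and 0.11 to 0.45, and they did not pass (limma adjusted p = 0.230 and 0.226).

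COL1A2 fell in number 3 relative to number 1 by 0.84 on the log2 scale (SE 0.16, limma adjusted p = 0.0335), from 325 to 163 in shCTRL and from 397 to 248 in shHBO1. Its partner COL1A1 had a difference of −0.51 and did not pass (adjusted p = 0.0774). COL13A1 was the one chain of the 9 with its highest shHBO1 value in number 2, at 443. Its difference was 0.71 between numbers 3 and 1 (SE 0.17) and 0.77 between numbers 2 and 1. For COL13A1 the limma F test over the 3 numbers gave adjusted p = 0.0380. Counting levels alone, both number 3 libraries lay above the other 4 in 12 of the 39 chains, against 21.6% of all genes, and below them in 8, against 19.4%.

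Genes that process, accompany or receive these chains were read from the same fits. The 3 lists held 72 genes, 65 of them tested, and 0 passed between shHBO1 and shCTRL with or without the block in limma. Of the 31 tested genes of collagen biosynthesis, 10 estimates were above 0 and 21 below, with a median of −0.067. P3H2, a prolyl 3-hydroxylase of basement membrane collagen, had 5225, 5096 and 5865 in shCTRL and 4168, 3686 and 4675 in shHBO1, with no overlap. Its log2 fold change was −0.37 (SE 0.10, limma adjusted p = 1.00, blocked adjusted p = 0.0819), and DESeq2 called it with the block (adjusted p = 0.000243) and not without it. CRTAP, a cofactor of prolyl 3-hydroxylation, had −0.20, the collagen chaperone FKBP10 −0.23 and the cross-linking enzyme LOX 0.28. In this list 2 genes, P3H2 and CRTAP, were lower with no overlap, against 4.44% of all genes. LOX alone was higher with no overlap (493 to 605 in shCTRL and 648 to 702 in shHBO1), against 4.49% of all genes.

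Basement membrane partners numbered 17 tested genes with a median of 0.0060, 9 above 0 and 8 below. FBLN1, a matrix glycoprotein that binds laminin and nidogen, had 1065, 963 and 897 in shCTRL and 662, 554 and 671 in shHBO1. The groups did not overlap, and the log2 fold change was −0.63 (SE 0.12, limma adjusted p = 0.835, blocked adjusted p = 0.0763). DESeq2 called FBLN1 without the block (adjusted p = 0.00429) and with it (adjusted p = 0.000297). FBLN1 also stands in the list of fibroblast markers, whose other abundant gene THY1 had 433 to 498 in shCTRL and 417 to 469 in shHBO1. The netrin NTN4, which binds laminins, had 0.55, FBLN2 −0.28 and the proteoglycan AGRN −0.16. Among these partners 3 genes, FBLN1, FBLN2 and SPARC, were lower with no overlap, against 4.44% of all genes, and 0 were higher.

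Receptors of collagen and laminin numbered 17 tested genes with a median of −0.0072, 7 above 0 and 10 below. ITGA6 and ITGB4, the integrin subunits that bind laminin in hemidesmosomes, had log2 fold changes of 0.31 and 0.09, and the laminin receptor BCAM had −0.28. ITGA2, the alpha subunit of a collagen-binding integrin, had 3390, 3917 and 9035 in shCTRL and 5225, 5749 and 9306 in shHBO1. Its log2 fold change was 0.41 (blocked limma adjusted p = 0.226, blocked DESeq2 adjusted p = 0.00989). Its number 3 libraries were the highest of both groups, with a difference of 1.12 between numbers 3 and 1. The limma F test of ITGA2 over the 3 numbers gave adjusted p = 0.00514. Between replicate numbers 7 genes of biosynthesis (22.6%), 3 basement membrane partners (17.6%) and 5 receptors (29.4%) passed, against 9.68% of all genes.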

How the data were processed

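The deposited table holds the authors' normalized signal for 58215 RefSeq transcripts in the 6 libraries, whose scaling factors are not given. The submitters' processing notes name hg19, DESeq2, SAMtools and Bowtie 1.2.1.1 without roles. The strand setting and the sharing of reads between transcripts are not stated there. Dividing each deposited value by 1 step per library gave whole reads for 100% of values at a tolerance of 0.01 read. Names came from RefSeq (GRCh38.p14) for 57191 transcripts and GENCODE release 29 for 671; the 353 without a name held 0.0840 to 0.0901% of reads. Normalized values were summed per gene. Levels per kb used GENCODE lengths, and for COL1A1 its longest coding transcript. Reads shared with overlapping genes could not be separated.

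The test was limma-trend (limma 3.58.1, R 4.3.3) on log2(value + 1), for genes averaging 10 or more, adjusted over all of them by Benjamini-Hochberg and called at 0.05. The scripts were tested on simulated data. edgeR 4.0.16 and DESeq2 1.42.0 ran on recovered reads as alternatives, beside other scalings, filters, pseudocounts, left-out libraries and 1 transcript per gene. Deviations from the group mean correlated within numbers 1, 2 and 3 at 0.32, 0.20 and 0.48, so libraries of 1 number were taken as pairs. Correlations between libraries of different numbers were not computed, and the labels state no pairing. The block was therefore chosen from the same values that it was used on. An adjusted p that DESeq2 gave as missing stayed missing. The exact two-sided permutation test of KAT7 gave p = 0.1, the smallest that 3 against 3 allows.

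The members and lists were chosen with earlier results of these data known. The text names KAT7, chains with a mean of at least 1000, the 6 with the smallest p, those past a threshold, the highest of each class, their trimer partners, and 4 genes per partner list. Of the tested chains, 1 is in the counts over the list and is not reported here by itself.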

Additional observations from a re-analysis of the deposited data

How the results depend on the processing

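KAT7 passed under all 20 alternatives, with log2 fold changes from −2.16 to −1.89. With the replicate block limma called 19 genes and edgeR 19. DESeq2 called 19 without the replicate block, with 1 partner gene, and 147 with the replicate block, with 1 chain and 5 partner genes. Without the number 3 pair and with the replicate block, 2313 genes, 12 chains and 21 partner genes passed, on 2 pairs and 1 residual degree of freedom, and without the block 1 gene passed. The replicate block changed no other call of a named chain in limma or edgeR.

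The median of the chains was 0.020 with edgeR, 0.022 with DESeq2, −0.013 with the most abundant transcript, 0.087 without the number 3 pair (with or without the replicate block), and 0.0061 to 0.068 with 1 library left out. For replicate numbers, DESeq2 called 15 chains, against 13.0% of all genes. The most abundant transcript gave 0 chains and fits with 1 library left out 5 to 25, with no share of all genes taken. For all of these medians and counts, the cause of the change was not tested.

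The estimates of several chains changed sign. With 1 library left out they ran from −0.072 to 0.25 for COL16A1, −0.013 to 0.63 for COL27A1, −0.22 to 0.35 for COL4A1, −0.21 to 0.035 for COL4A2, −0.32 to 0.090 for COL4A5, −0.015 to 0.46 for COL4A6, −0.26 to 0.85 for COL6A3, −0.057 to 0.49 for COL7A1, −0.018 to 0.11 for COL8A1, −0.12 to 0.077 for LAMB1, −0.26 to 0.11 for LAMB2 and −0.096 to 0.055 for LAMC1. Without a change of sign they ran from 0.12 to 0.88 for LAMB3, 0.21 to 0.62 for COL12A1, 0.060 to 0.43 for COL1A1 and 0.021 to 0.52 for COL1A2, the last 2 lowest without shCTRL 3. With the most abundant transcript COL8A1 was −0.013, COL25A1 −0.016 and COL4A5 0.16. Without the number 3 pair, with or without the replicate block, COL11A2 was −0.15, COL16A1 −0.10, LAMB1 0.019 and LAMC1 0.036. Chains of low counts, such as COL6A3 and COL25A1, had the widest intervals.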
